A study of Mus musculus with 12 samples.

Results

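The 10 genes described here carry the growth hormone signal in the liver and make the circulating insulin-like growth factor 1 (IGF1) and its carriers. They are *Ghr*, *Stat5b*, *Igf1*, *Igfals*, *Igfbp1*, *Igfbp2*, *Igfbp3*, *Igfbp4*, *Cish* and *Socs2*, chosen by name, and they are 10 of the 20283 gene symbols that the probes of the array carry. They have 18 of its 39429 probes, found by the RefSeq record of each probe, and all 18 were well above background, for Cy3 and Cy5 alike, on each of the 12 arrays. Growth hormone from the pituitary binds its receptor (GHR) on hepatocytes, and the receptor, through the kinase JAK2, activates the transcription factor STAT5B. STAT5B switches on *Igf1*, *Igfals*, *Socs2* and *Cish*, and the products of the last pair, SOCS2 and CISH, damp the signal again. IGF1 travels in blood bound to IGF binding proteins, mostly in a complex with IGFBP3 and the acid labile subunit (the product of *Igfals*), whereas *Igfbp1* is held down by insulin and induced by fasting.

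The study asked how molecular hydrogen changes the liver transcriptome of the *db*/*db* mouse, an obese and diabetic strain whose leptin receptor does not function. All mice, controls included, were male *db*/*db* mice labelled as 8 weeks old and fed ad libitum. Treated mice received MgH2, which releases hydrogen in the stomach, by gavage once a day for 1, 3 or 7 days (0.9 mg/kg in the labels, other doses in the study's methods), and their controls Mg(OH)2, or they drank water saturated with hydrogen (H2-water, 0.8 mM) for 14 days, and their controls degassed water. Each of the 4 treatments was measured on 3 two-color arrays, each with liver RNA of a pool of 3 treated mice in the Cy5 channel and of a pool of 3 control mice in the Cy3 channel, so that an array stands for a pair of pools and not for single animals.

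The value used throughout is the log2 ratio of treated over control signal, where 0 means no difference, 1 a doubling and -1 a halving. Without a dye swap, a dye bias of a probe cannot be told apart from a treatment in a ratio against control, whereas a bias that is equal on all arrays cancels between days. A level is the signal of a channel per 1000000 units of the total signal of an array, and levels are compared only within a probe. Of the spots, 51.8% to 56.5% were well above background on each array and none of the spots used was saturated. The 14-day arrays are on a slide of their own, were read with another version of the scanner software and come from another experiment, so these cannot be told apart.

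Called below are probes with a limma adjusted p under 0.05, after Benjamini-Hochberg adjustment over all probes tested in the comparison. The test of the study's methods, run as an alternative, was adjusted in the same way and held to the same threshold. Those methods state a P under 0.05 and name no adjustment, so calls by that test here are not the study's own calls. After 1 day of MgH2, 0 of the 10 genes were called by their brightest probe, against 9.38% of all probes tested. There, 1 gene, *Stat5b*, had an unadjusted p under 0.05 in limma, and the methods' t-test called 0 as well. After 3 days, 3 of the 10 genes were called against 23.4% of all probes, with *Stat5b* higher (12.3% of all probes) and *Igfals* and *Igfbp3* lower (11.1%). After 7 days, 2 of the 10 were called against 29.5% of all probes, *Stat5b* higher (15.3%) and *Igfals* lower (14.2%). After 14 days of H2-water, 0 of the 10 were called against 8.86% of all probes, with *Igfals* and *Igfbp1* at an unadjusted p under 0.05 in limma and 0 called by the methods' t-test. In the contrasts between MgH2 days limma called 0 of the 10 by the brightest probe, with *Igfbp3* at an unadjusted p under 0.05 for 3 against 1 day and *Ghr*, *Igf1* and *Igfals* for 7 against 1 day.

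**Figure D1:**
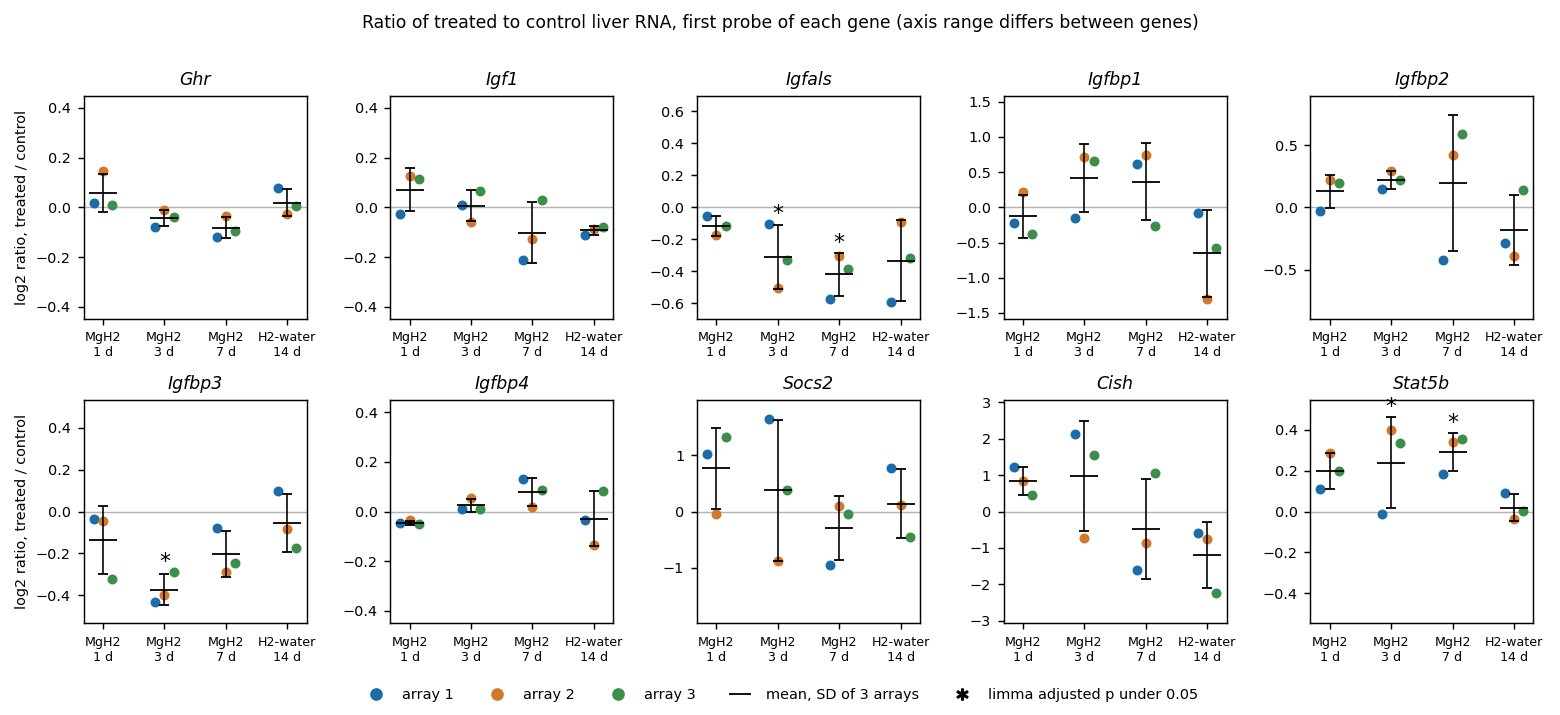
Log2 ratio of treated over control for the brightest probe of each of the 10 genes, by treatment and array (points, colored by replicate number), with the mean and SD of 3 arrays; a star marks a limma adjusted p under 0.05. *Igfals* lies below 0 on all 12 arrays, and *Cish* and *Socs2* spread over several log2 units within a treatment (the vertical ranges differ between genes).

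The receptor gene *Ghr* was read by a pair of probes that gave different results. Alternative splicing of mouse *Ghr* is known to give both the membrane receptor and a soluble growth hormone binding protein, and the probes belong to different RefSeq transcript records of the gene. Which form each probe reads was not tested. The brighter probe had log2 ratios of 0.02, 0.15 and 0.01 after 1 day, -0.08, -0.01 and -0.04 after 3 days, -0.12, -0.04 and -0.09 after 7 days and 0.08, -0.03 and 0.01 after 14 days, and it was not called in any of the 7 comparisons. With the mean over both probes *Ghr* was called lower after 3 days (log2 -0.11, limma adjusted p = 0.0422) and 7 days (log2 -0.15, limma adjusted p = 0.00677).

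The other *Ghr* probe had log2 ratios of 0.03, 0.03 and -0.04 after 1 day, -0.08, -0.21 and -0.22 after 3 days and -0.24, -0.17 and -0.27 after 7 days. All 6 arrays of 3 and 7 days lay below the 3 arrays of 1 day. This probe fell by 11% after 3 days (log2 -0.17 ± 0.08 SD, n = 3, limma adjusted p = 0.0111) and by 14.5% after 7 days (log2 -0.23 ± 0.05 SD, n = 3, limma adjusted p = 0.00189). After 14 days of H2-water it gave -0.05, -0.03 and -0.03, with a mean of -0.04 that was not called (limma adjusted p = 0.615). The fall from 1 to 7 days was itself called, with a log2 difference of -0.23 (SE 0.05, limma adjusted p = 0.0303). No slide holds arrays of both days, so slide and day cannot be told apart in this contrast. This was the one call of a probe of these genes among the contrasts between days, where 0.0208% of all probes tested were called for 3 against 1 day, 6.94% for 7 against 1 day (3.68% lower) and 0.0% for 7 against 3 days. It was lost without any 1 of 5 of the 6 arrays compared, all but replicate 2 of 7 days, with adjusted p up to 0.101, and over the other alternatives its adjusted p ran from 0.0129 to 0.129. The call at 3 days was lost without replicate 2 (0.0743) or replicate 3 (0.0693) of 3 days, and over the other alternatives the adjusted p ran from 0.00230 to 0.179 after 3 days and from 0.000468 to 0.145 after 7 days.

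*Stat5b* has a pair of probes of the same RefSeq record, and they stood apart by a steady step. The brighter probe gave log2 ratios of 0.11, 0.28 and 0.20 after 1 day, -0.01, 0.40 and 0.33 after 3 days, 0.19, 0.34 and 0.35 after 7 days and 0.09, -0.04 and 0.00 after 14 days of H2-water. It lay above 0 on 8 of the 9 arrays of MgH2 and around 0 after H2-water. It was called higher, 1.18-fold after 3 days (log2 0.24 ± 0.22 SD, n = 3, limma adjusted p = 0.0393) and 1.23-fold after 7 days (log2 0.29 ± 0.09 SD, n = 3, limma adjusted p = 0.0140). Between days, where an equal dye bias cancels, no contrast of this probe was called. Its log2 differences from 1 day were 0.04 at 3 days and 0.10 at 7 days (limma adjusted p = 0.892 and 0.610). Whether a dye bias bears on its ratios against control was not tested.

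The dimmer *Stat5b* probe followed the brighter one from array to array (Pearson r = 0.960 over 12 arrays) at a lower ratio. The brighter probe was above it on 12 of 12 arrays, by a log2 difference of 0.24 on average (SD 0.05, from 0.14 to 0.30). The dimmer probe therefore averaged -0.08, -0.03 and 0.04 after 1, 3 and 7 days and -0.16 after 14 days, and none of these was called. With the mean over both probes *Stat5b* was not called after 3 days (limma adjusted p = 0.324) or 7 days (limma adjusted p = 0.110). The calls of the brighter probe were also lost without replicate 2 or 3 of 3 days (0.239 and 0.190) and without replicate 2 or 3 of 7 days (0.0723 and 0.0866). Over the other alternatives the adjusted p ran from 0.0255 to 0.324 after 3 days and from 0.00842 to 0.175 after 7 days. STAT5A is a near-identical neighbor of STAT5B, and signal shared between their genes was not tested.

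**Figure D2:**
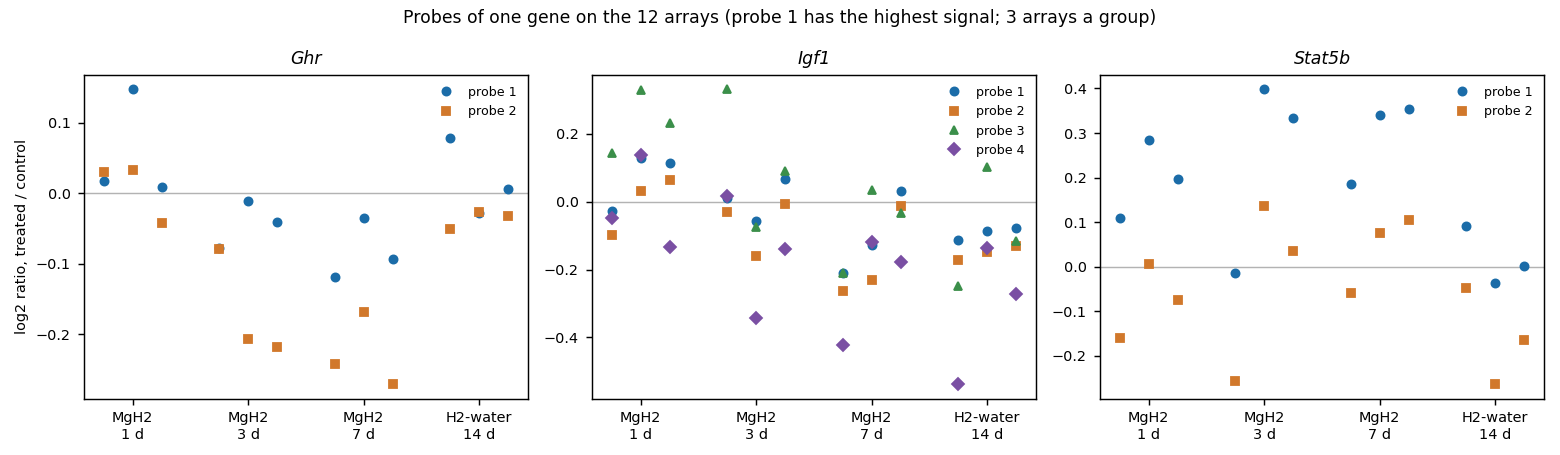
Log2 ratio of treated over control on each of the 12 arrays for all probes of *Ghr*, *Igf1* and *Stat5b*, 3 arrays a treatment. The *Stat5b* probes move together with a step of about 0.24 between them, the dimmer *Ghr* probe averages -0.17 and -0.23 after 3 and 7 days where the brighter one averages -0.04 and -0.08, and *Igf1* probes 1 and 2 stay within 0.11 of each other.

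*Igf1*, the hormone that the liver releases under growth hormone, stayed within 0.21 of 0 on all 12 arrays by its brightest probe. Its log2 ratios were -0.03, 0.13 and 0.11 after 1 day, 0.01, -0.06 and 0.07 after 3 days, -0.21, -0.13 and 0.03 after 7 days and -0.11, -0.09 and -0.08 after 14 days of H2-water. The 14-day arrays lay close together and below 0, with a mean difference of -6.23%, which was not called (limma adjusted p = 0.289). None of the 7 comparisons was called with this probe.

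The second *Igf1* probe ran 0.07 lower on the log2 scale on average (SD 0.02) and lower on 12 of 12 arrays. It gave -0.26, -0.23 and -0.01 after 7 days, a fall of 11.1% (log2 -0.17 ± 0.14 SD, n = 3) that was called (limma adjusted p = 0.0378). The call was lost without replicate 1 (0.212) or replicate 2 (0.173) of 7 days, and over the other alternatives the adjusted p ran from 0.00613 to 0.235. After 14 days this probe gave -0.17, -0.15 and -0.13, with limma adjusted p = 0.117. The third and the fourth probe, both much dimmer, were not called in any comparison, and the fourth averaged -0.24 after 7 days and -0.32 after 14 days (limma adjusted p = 0.0778 and 0.0664).

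*Igfals* encodes the acid labile subunit, which holds the IGF1 complex in the bloodstream, and was lower than control on 12 of 12 arrays. Its log2 ratios were -0.05, -0.18 and -0.12 after 1 day, -0.10, -0.50 and -0.33 after 3 days, -0.57, -0.30 and -0.38 after 7 days and -0.59, -0.09 and -0.31 after 14 days of H2-water. The 7-day arrays all lay below the 1-day arrays, and the 3-day arrays overlapped both. The control levels of the MgH2 arrays ran from 6.81 to 7.69 and those of treated liver from 7.41 down to 4.73.

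*Igfals* fell by 25.2% after 7 days of MgH2 (log2 -0.42 ± 0.14 SD, n = 3, limma adjusted p = 0.00904). It fell by 19.3% after 3 days (log2 -0.31 ± 0.20 SD, n = 3, limma adjusted p = 0.0397), a call that was lost with replicate number as a block (adjusted p = 0.053). After 14 days of H2-water the mean difference from control was -20.6% (log2 -0.33 ± 0.25 SD, n = 3), which missed the threshold (limma adjusted p = 0.0604), and it was called under 3 alternatives, with adjusted p of 0.0451 after scaling each channel to its total, 0.0446 after normexp and loess and 0.0311 with the slide as a random block. The contrast of 7 with 1 day was -0.30 (SE 0.13) and was not called (limma adjusted p = 0.189). The calls also rested on single arrays, since without replicate 2 or 3 of 3 days (0.234 and 0.136) and without replicate 1 of 7 days (0.0681) they were lost. Over the other alternatives the adjusted p ran from 0.0264 to 0.221 after 3 days, from 0.00530 to 0.103 after 7 days and from 0.0311 to 0.233 after 14 days. Hepatocytes are the source of *Igfals*. Of 5 hepatocyte markers, 2 were called higher after 3 days (12.3% of all probes) and 4 after 7 days (15.3%), and none lower at these times. Their summed level was 2844 to 3196 in control and 3488 to 4049 in treated liver after 7 days. Of the 5, 4 were above background on all arrays, and a missing value is left out of a sum. Whether cell content bears on the level of *Igfals* was not tested.

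Letters of the STAT5 binding motif, TTCNNNGAA (its own reverse complement), were looked for in the 250 bases before each RefSeq start site (GRCm38.p6) of these genes. Of the 10 genes 9 have such windows, 14 in all, and *Igfals* alone held the motif, once each before 2 of its 3 start sites, whereas 7.02% of all 32851 windows of this length hold it. The sequences are shown because *Igfals*, a known target gene of STAT5B, fell after 3 and 7 days, with the motif in capitals, 10 bases on each side, on the + strand of chromosome 17. The first, chr17:24877598-24877626, begins its motif 236 bases before start site 1, and the second, chr17:24878163-24878191, 58 bases before start site 2. A match describes letters only and is no test of binding, and a window without it says nothing of sites elsewhere.
Igfals, start site 1: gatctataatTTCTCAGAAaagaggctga
Igfals, start site 2: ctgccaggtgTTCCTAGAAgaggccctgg

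*Igfbp3* encodes the binding protein of that same circulating complex, and in liver it is known to come mainly from cells other than hepatocytes. Its log2 ratios were -0.04, -0.05 and -0.32 after 1 day, -0.43, -0.40 and -0.29 after 3 days, -0.08, -0.29 and -0.24 after 7 days and 0.10, -0.09 and -0.17 after 14 days of H2-water. It lay below 0 on 9 of 9 MgH2 arrays, which may share control pools. The 3-day arrays lay only just below the 7-day arrays, the nearest values being -0.2893 and -0.2879. It fell by 22.8% after 3 days (log2 -0.37 ± 0.07 SD, n = 3, limma adjusted p = 0.00540). After 7 days its difference from control was -13.2% (log2 -0.20 ± 0.11 SD, n = 3, limma adjusted p = 0.0504), which was called with replicate number as a block (adjusted p = 0.037). Over the alternatives the adjusted p ran from 0.00359 to 0.186 after 3 days and from 0.0367 to 0.404 after 7 days apart from arrays left out. With normexp background correction and loess the log2 ratio was -0.25 after 3 days (still called) and -0.10 after 7 days. No contrast between days was called for it.

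Markers of non-hepatocyte cells were called in the same groups. Of all probes, 11.1% were called lower after 3 days and 14.2% after 7 days, and 12.3% and 15.3% higher. After 14 days 8.86% were called in either direction. Of 5 Kupffer cell markers, 3 were lower after 3 days and after 7 days (*Cd5l*, *Vsig4* and *Clec4f*, log2 from -0.36 to -0.47), with a summed level of the 5 markers of 56.8 to 69.9 in control and 43.4 to 51.2 in treated liver after 3 days. After 14 days of H2-water that sum was 44.8 to 51.6 in control and 43.1 to 54.6 in treated liver, with 0 of 5 called in limma and 0 at an unadjusted p under 0.05. Of 5 stellate cell markers, 2 were lower after 3 and 7 days (*Lrat* and *Col1a1*), and of 5 endothelial markers 2 were higher and 1 lower after 3 days, 1 and 1 after 7 days and 0 and 1 after 14 days of H2-water. Their part in the fall of *Igfbp3* was not tested, and in RNA of whole liver fewer cells of a type and less RNA per cell cannot be told apart.

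*Igfbp4*, another IGF binding protein that hepatocytes secrete, had log2 ratios between -0.14 and 0.13 on the 12 arrays. Its mean was highest after 7 days (log2 0.08 ± 0.06 SD, n = 3, limma adjusted p = 0.185). It was not called in any comparison.

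*Igfbp2* is a carrier known to be low in obesity. It gave -0.03, 0.22 and 0.19 after 1 day, 0.15, 0.29 and 0.22 after 3 days, -0.43, 0.42 and 0.59 after 7 days and -0.29, -0.39 and 0.14 after 14 days of H2-water. Replicate 1 of 7 days went against its other arrays. No mean was called, with 0.22 ± 0.07 (SD, n = 3) after 3 days (limma adjusted p = 0.374) and 0.19 ± 0.55 (SD, n = 3) after 7 days (limma adjusted p = 0.407). Without replicate 1 of 7 days the 7-day mean was 0.50 and was called (limma adjusted p = 0.0189). A second probe followed the first from array to array (Pearson r = 0.992 over 12 arrays).

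*Igfbp1*, the insulin-repressed carrier, changed sign within treatments. It gave -0.22, 0.22 and -0.38 after 1 day, -0.14, 0.72 and 0.67 after 3 days, 0.61, 0.74 and -0.26 after 7 days and -0.07, -1.30 and -0.58 after 14 days of H2-water. It was below 0 on all 3 arrays of H2-water, with a mean difference of -36.4% (log2 -0.65 ± 0.62 SD, n = 3), and was not called there (limma adjusted p = 0.16). After 3 and 7 days of MgH2 its means of 0.41 and 0.36 were not called either (limma adjusted p = 0.280 and 0.322).

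The feedback inhibitors *Cish* and *Socs2*, which STAT5 induces within a short time of a growth hormone pulse, had the widest ratios of the 10 genes. *Cish* gave 1.23, 0.84 and 0.44 after 1 day, 2.13, -0.74 and 1.54 after 3 days, -1.59, -0.87 and 1.06 after 7 days and -0.60, -0.74 and -2.23 after 14 days of H2-water. All 3 arrays lay above 0 after 1 day and all 3 below 0 after H2-water, and the arrays of 3 and 7 days spread to both sides. Its mean was 1.79-fold over control after 1 day (log2 0.84 ± 0.39 SD, n = 3, limma adjusted p = 0.404), and after H2-water the difference was -56.2% (log2 -1.19 ± 0.90 SD, n = 3, limma adjusted p = 0.254). It was not called in any comparison.

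*Socs2* gave 1.03, -0.05 and 1.32 after 1 day, 1.63, -0.87 and 0.38 after 3 days, -0.95, 0.11 and -0.04 after 7 days and 0.76, 0.11 and -0.44 after 14 days of H2-water. Its highest mean was 1.70-fold over control, after 1 day (log2 0.77 ± 0.72 SD, n = 3, limma adjusted p = 0.293), and it was not called in any comparison. The probe is printed on 10 spots an array, and the SD of the log2 ratio over the spots was 0.126 in the median of the arrays and 0.230 at most. The other *Socs2* probes followed it (Pearson r = 0.983 and 0.971 over 12 arrays).

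The spread between arrays of a treatment differed widely among these genes. The SD of the log2 ratio within groups was 1.13 for *Cish*, which ranked 14 among 18411 probes above background on all arrays, and 0.834 for *Socs2*, which ranked 43. *Igfbp1* followed at 0.502 (rank 256) and *Igfbp2* at 0.317 (rank 1075), and the median of all probes was 0.116. *Ghr*, *Igf1* and *Igfbp4*, at 0.0545, 0.0817 and 0.0632, were steadier than the median probe. This is a description with no test, and with SDs of this size a mean of 3 arrays leaves wide intervals: the SE of the mean ratio was 0.58 for *Cish* and 0.43 for *Socs2* on the log2 scale after MgH2, against 0.04 for *Ghr*.

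**Figure D3:**
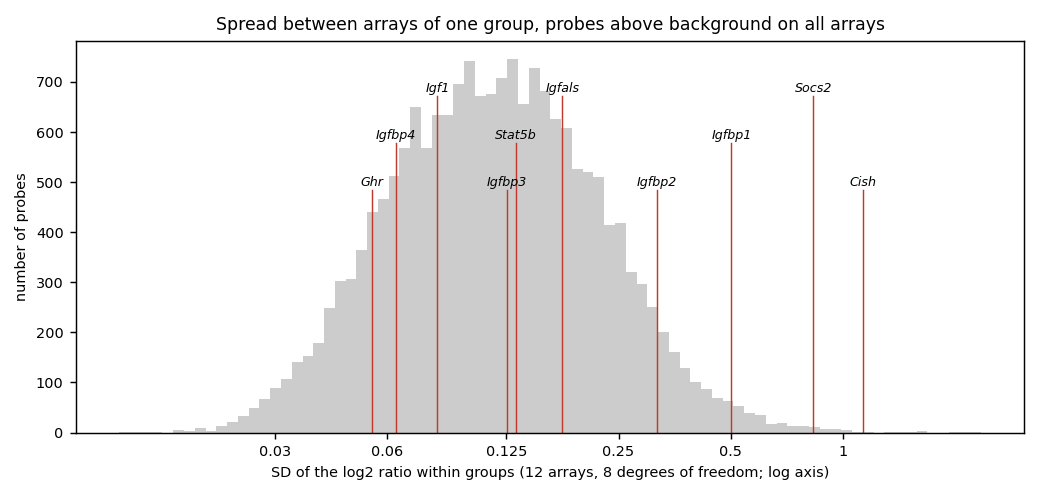
Distribution of the SD of the log2 ratio within treatments (log axis) over the 18411 probes above background on all 12 arrays, with the brightest probe of each of the 10 genes as a line. *Cish* (1.13) and *Socs2* (0.834) lie in the far upper tail, and *Ghr*, *Igfbp4* and *Igf1* lie below the median of 0.116.

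Levels were also compared within each channel. Over the 9 MgH2 arrays, whose control pools may recur between days, the highest *Cish* level was 13.5 times the lowest in treated pools and 2.22 times the lowest in control pools. For *Socs2* the same quotients were 6.20 in treated and 1.27 in control pools. *Igfbp1* varied in both, by 3.62 in treated and 2.53 in control pools. Over the 3 arrays of H2-water the quotients of treated and control pools lay closer together for *Cish* (3.20 and 2.33) and *Socs2* (1.66 and 1.43), and for *Igfbp1* the control pools varied more (1.34 and 1.94).

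The control levels repeated by replicate number over the MgH2 days. Control *Igfbp1* was 45.3, 43.7 and 42.7 in replicate 1 of 1, 3 and 7 days, 41.5, 39.9 and 38.3 in replicate 2 and 96.7, 88.7 and 89.4 in replicate 3. Control *Cish* was 1.44, 1.35 and 1.33 in replicate 1, 0.941, 1.02 and 0.982 in replicate 2 and 0.752, 0.720 and 0.648 in replicate 3. The control *Igfbp1* level thus had an SD of 0.0441 on the log2 scale between days of a number and 0.648 between numbers of a day, against 0.427 and 0.594 in treated pools. Over all probes the median of these SDs was 0.0632 and 0.107 in control pools and 0.130 and 0.102 in treated pools. The labels name a control for each day, and whether the same control pools were used on all 3 days was not tested. The comparisons of 1, 3 and 7 days with control are therefore set side by side here as comparisons that may share their controls.

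After H2-water the control pools had other levels than the gavage controls. Control *Socs2* was 0.581, 0.833 and 0.811 against 0.214 to 0.271 in the gavage controls, and control *Cish* was 1.76, 4.12 and 3.6 against 0.648 to 1.44. Control *Igfbp3* was 1.19 to 1.32 against 0.618 to 0.807, and the brighter *Stat5b* probe 14.5 to 16.3 against 7.87 to 9.70. Of the brightest probes of the 10 genes, 5 were higher in all water controls than in all gavage controls, these 4 and *Igf1* (142 to 153 against 115 to 135), 1 was lower, *Ghr* (72.0 to 75.4 against 89.1 to 95.8), and the ranges of 4 overlapped. Slide, software version and experiment cannot be told apart in these levels. How many of all probes part in this way was not counted, so these counts are not read as particular to the 10 genes.

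**Figure D4:**
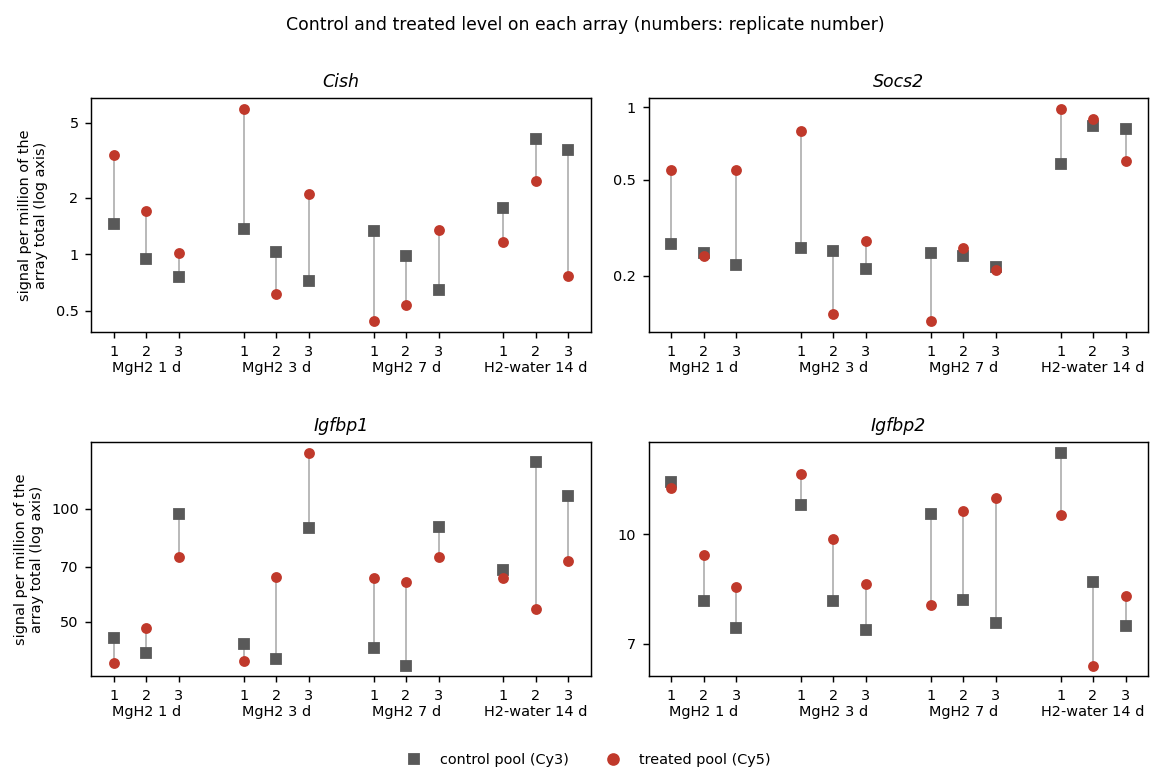
Level (signal per 1000000 units of the total signal of an array, log axis) for *Cish*, *Socs2*, *Igfbp1* and *Igfbp2* in the control pool (squares) and the treated pool (circles) of each array, joined by a line. Control levels of replicates 1, 2 and 3 recur on the 3 MgH2 days, while treated *Cish* runs from 0.439 to 5.94 and treated *Socs2* from 0.129 to 0.800.

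Across arrays, *Cish* and *Socs2* ratios went together (Pearson r = 0.677 over 12 arrays and 0.745 over the 9 MgH2 arrays). *Igfals* went with *Socs2* at 0.600 over 12 arrays and 0.899 over the MgH2 arrays, and with *Igf1* at 0.533 over 12 arrays. *Igfbp1* and *Igfbp2* went together less, at 0.304 over 12 arrays and -0.133 over the MgH2 arrays. These are descriptions of arrays that may share control pools, each value on both sides being taken from the same pair of pools. Among 11562 genes compared, the ratios most like those of *Socs2* over 12 arrays were of *Cmc4*, *Zfp454* and *Cldn14* (r = 0.856 to 0.835), those most like *Igf1* of *Hao1*, *Tbc1d8b* and *Apba3* (r = 0.916 to 0.907), those most like *Igfbp1* of *Pigs*, *Trpm7* and *Sgk1* (r = 0.913 to 0.889) and those most like *Igfbp2* of *Rnf139*, *Ly96* and *Ggh* (r = 0.903 to 0.867).

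Other genes of the pathway were called to both sides. Of 14 other genes of growth hormone receptor signaling, by their brightest probe, 0 were called higher and 2 lower of 14 tested after 1 day, 1 and 3 of 13 after 3 days, 1 and 1 of 11 after 7 days, and 1 and 0 of 12 after 14 days, where 9.38%, 23.4%, 29.5% and 8.86% of all probes were called. For several of these genes the probes disagreed. *Ptpn1*, a phosphatase that acts on the JAK2 pathway, fell after 1 day (log2 -0.23 ± 0.07 SD, n = 3, limma adjusted p = 0.0278) and after 3 days (log2 -0.19) by its brighter probe, the other being at 0.00 after 3 days. *Prlr*, the prolactin receptor, was called lower after 1 and 3 days by its brighter probe (log2 -0.23 and -0.20), and after 7 days by the other (log2 -0.40), which was at 0.12 and -0.05 after 1 and 3 days. The adapter gene *Shc1* fell after 3 and 7 days (log2 -0.16 and -0.18), and the adapter gene *Grb2* was called higher after 3 and 7 days by its brighter probe (log2 0.16 and 0.24) but not by the other (-0.05 and 0.02). *Sos1*, the exchange factor that GRB2 recruits, rose after 14 days of H2-water (log2 0.55 ± 0.19 SD, n = 3, limma adjusted p = 0.0373).

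On the side of IGF action, 10 of 17 other genes of the insulin-like growth factor system could be tested after MgH2. By the brightest probe 3 were called higher after 1 day and 2 each after 3 and 7 days, and none lower, where 9.38%, 23.4% and 29.5% of all probes were called in either direction. *Igf2r*, which clears IGF2 from the cell surface, rose at all 3 times (log2 0.28, 0.35 and 0.32 with SDs of 0.05, 0.08 and 0.07, n = 3 each, limma adjusted p = 0.00993, 0.00136 and 0.00148). *Irs1*, the docking protein of the insulin and IGF1 receptors, was called higher at all 3 times by its brighter probe (log2 0.41, 0.48 and 0.37, limma adjusted p = 0.0489, 0.0150 and 0.0335), whereas the other probe was at -0.05, 0.16 and 0.00 and was not called. The probes of *Akt2*, the kinase further down, went apart. The brightest was called higher after 1 day (log2 0.12), the second after 1, 3 and 14 days (log2 0.16, 0.12 and 0.14), and the third lower after 3 and 7 days (log2 -0.20 and -0.29). After 14 days of H2-water limma called 0 of 12 genes tested, with 4 at an unadjusted p under 0.05, and *Igf2r* was at 0.14 and the brighter *Irs1* probe at 0.13 (the other at -0.34).

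Of the liver transcription factors that act with STAT5 or depend on growth hormone, 7 of 8 could be tested. Of these 7, 0 were called higher, and 1, 1, 1 and 2 were called lower after 1, 3, 7 and 14 days. Of all probes, 9.38%, 23.4%, 29.5% and 8.86% were called in either direction at these times. *Cebpa*, a factor of the hepatocyte program, was called lower in all 4 treatments (log2 -0.30, -0.48 and -0.50 after 1, 3 and 7 days and -0.23 after 14 days). *Hnf4a* fell after 14 days (log2 -0.21) and was not called at the other times, without a test of the difference between them. The others of this list were not called in any comparison.

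Among the insulin and FOXO responsive genes, which share regulators with *Igfbp1*, 2 of 10 were called higher and 1 lower after 3 days and again after 7 days, close to the 23.4% and 29.5% of all probes called. *Pck1*, a gene of gluconeogenesis, rose (log2 0.31 after 3 and after 7 days) and so did the coactivator gene *Ppargc1a* (log2 0.58 and 0.77), whereas the lipogenic factor gene *Srebf1* fell (log2 -0.60 and -0.86). After 14 days of H2-water 0 of 10 were called higher and 1 lower, against 8.86% of all probes in either direction. *Pck1* fell there (log2 -0.39). A link of these genes to *Igfbp1* was not tested.

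The pattern of growth hormone pulses sets the sex bias of many liver genes, frequent exposure favoring the female-biased set and pulses the male-biased set. Of 16 male-biased genes listed, 15 have a probe and 14 or 15 could be tested. Their median log2 ratio was 0.36 after 1 day, 0.22 after 3 days, -0.09 after 7 days and -0.44 after 14 days of H2-water, where the median of all probes lay within 0.01 of 0. Of the single genes limma called 0 after 1 and 3 days (2 and 4 at an unadjusted p under 0.05), 3 of 14 lower after 7 days, where 14.2% of all probes were called lower (*Cyp4a12a*, *Cyp4a12b* and *Cyp2f2*, log2 -0.44, -0.47 and -0.29) and 1 lower after 14 days (*Cyp7b1*, log2 -0.44). *Cyp4a12a* and *Cyp4a12b* are near-identical and may share signal.

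The female-biased list, with 19 of 21 genes on a probe and 16 or 17 tested, had medians of -0.29, 0.07, 0.20 and 0.25 after 1, 3, 7 and 14 days. After 1 day 14 of 17 genes lay below 0 and 1 was called lower by its brightest probe (*Slc22a26*, log2 -0.92), as was the second probe of *Cyp2a4* (log2 -0.48). After 7 days 14 of 17 lay above 0 and 2 were called higher against 15.3% of all probes, *Cyp2a4* (log2 0.52) and *Sult1e1* (log2 0.63), and after 14 days limma called 0 of 17, with 4 at an unadjusted p under 0.05. *Cyp2a4* was also called in the contrast of 7 with 1 day (log2 0.94). In the 7-against-1-day contrast the list medians were -0.42 for the male-biased and 0.42 for the female-biased genes. These lists were chosen with earlier results of these data known, and counts and medians are given as descriptions.

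By array, the median of the male-biased genes above background on all arrays (14 genes) went from -0.60 to 0.55 and that of the female-biased genes (16 genes) from -0.54 to 0.62. The male-biased median had the sign of the *Cish* ratio on 9 of 12 arrays (Pearson r = 0.480) and the female-biased median on 4 of 12 (r = -0.574). With *Socs2* the sign was shared on 6 and 5 of 12 arrays (r = 0.145 and -0.402). Replicate 1 of 7 days had a low *Cish* ratio (-1.59), the lowest *Socs2* ratio (-0.95) and the highest female-biased median (0.62), whereas replicate 1 of 3 days, with the highest *Cish* and *Socs2* ratios, had medians of 0.00 and 0.08.

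**Figure D5:**
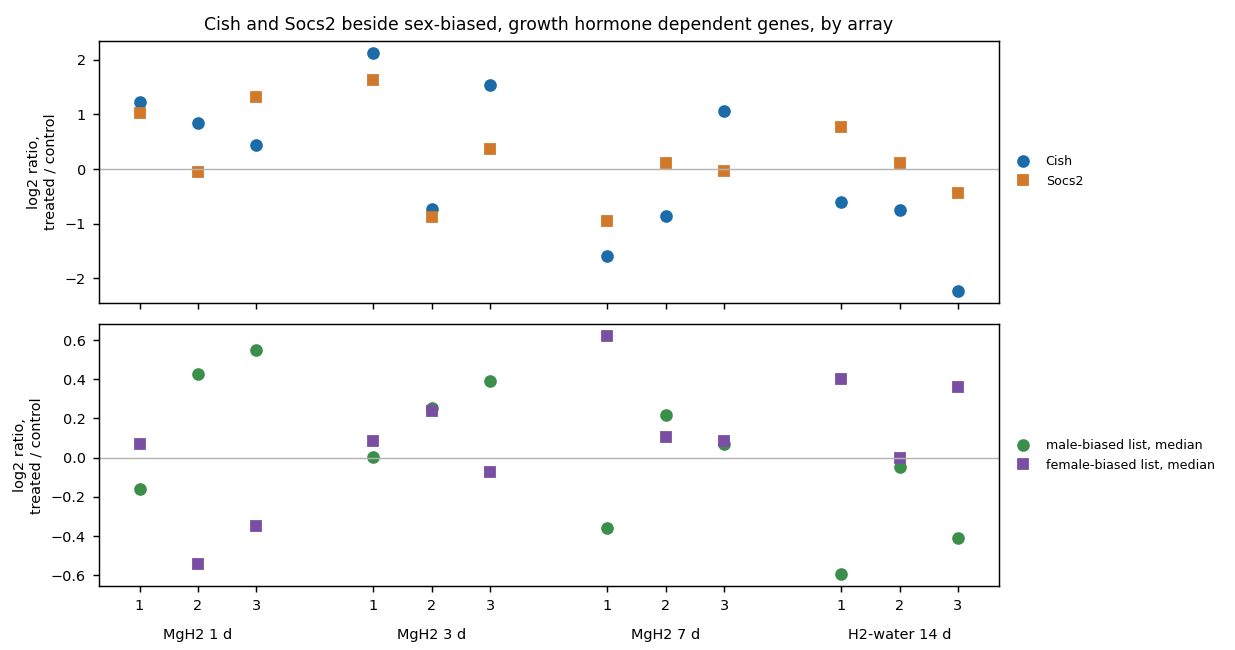
Log2 ratio of *Cish* and *Socs2* (upper panel) and the median log2 ratio of the male-biased and female-biased gene lists (lower panel) on each of the 12 arrays, numbered by replicate. Replicate 1 of 7 days has low *Cish* and *Socs2* ratios beside the highest female-biased median, 0.62.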

How the data were processed

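The authors deposited scanner output of 12 Agilent arrays, whose processed intensity per channel is background-subtracted and dye-normalized within an array by Agilent Feature Extraction (10.10.1 per the labels), together with the log10 ratio of Cy5 over Cy3, and a series table of log2 ratios. The headers of the scanner output give version 10.10.1.1 for the MgH2 arrays and 10.7.3.1 for the 14-day arrays. No build is given in the sources used here and none was needed. The deposited log2 ratios differed from the log10 ratios of the scanner output, put on the log2 scale, by at most 1.39e-06. Their difference from the ratios of the processed intensity was not measured. The table was used as an alternative, with 1844 probes called after 14 days against 1815 from the processed intensity. Control spots and spots marked as outliers (160 to 244 of 43020 an array) were left out, spots of a probe were averaged, and a gene is represented by its brightest probe. Of 39429 probes, 26761 were named, each with 1 symbol, through RefSeq records.

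All 12 arrays were fitted in limma 3.58.1 (R 4.3.3), with a mean per treatment tested against 0 or as contrasts between MgH2 days, two-sided, over probes well above background in Cy3 and Cy5 on every array of the comparison. Arrays are pools of separate mice per the study's methods, and their number limits the precision. The 14-day group was not tested against the others. The fit was checked on simulated data. Same-numbered arrays of the MgH2 days deviated together (r of log2 ratios 0.368 to 0.655 over 9 pairs, control channel 0.322 to 0.671), so the numbers pair them. The labels state no link. The main fit does not use this pairing, so its p-values take the arrays as independent. Replicate number as a block was run as an alternative.

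Alternatives were channel totals, median centering, normexp (offset 50) with loess, no filter on dim probes, marked spots kept, the series table, only the arrays compared, a replicate block, slides as a random or fixed block, each array left out, the mean over probes of a gene and the methods' t-test. The t-test used log2 channel signals against control and log2 ratios between days, with Benjamini-Hochberg adjustment. The members, the gene lists (growth hormone receptor signaling, insulin-like growth factor system, transcription factors, male-biased, female-biased, insulin and FOXO responsive genes and cell markers) and the tests were chosen with earlier results of these data known. Some genes of these lists are not reported here and were left out of their counts. Named besides the members are the listed genes called in at least 1 comparison, at most 6 per list, and the 3 genes most like *Igf1*, *Igfbp1*, *Igfbp2* and *Socs2*. Hepatocyte, Kupffer, stellate and endothelial markers are named beside the results they touch, after their values were seen. Of the other markers called, 1 of 3 cholangiocyte and 1 of 1 acinar markers tested were lower after 3 days and 1 of 4 blood markers after 3, 7 and 14 days, and 0 of 2 adipocyte markers were called by limma in any treatment (1 at an unadjusted p under 0.05, after 7 days). Of all probes, 23.4%, 29.5% and 8.86% were called in either direction after 3, 7 and 14 days.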

Additional observations from a re-analysis of the deposited data

Results flagged for a closer look

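Of the 10 genes (any probe) and the listed pathway, insulin responsive and sex-biased genes (brightest probe), 4 had a difference between days of MgH2 that was called. The dimmer *Ghr* probe differed by -0.23 (log2) between 7 and 1 days of MgH2. By the same contrast *Cyp2a4* differed by 0.94, *Srebf1* by -1.07 and *Pck1* by 0.48, with limma adjusted p from 0.0133 to 0.0332. The second probe of *Ppargc1a* was called too (1.53), as were 1 of 5 hepatocyte and 1 of 5 endothelial markers (higher) and 2 of 5 stellate cell and 1 of 4 blood markers (lower), among 1330 of all probes. Slide and day cannot be told apart in this contrast. *Cyp2a4* has near-identical neighbors that may share its probe's signal. *Cish* was above control on all 3 arrays after 1 day of MgH2 and below it on all 3 after 14 days of H2-water, a difference of -2.03 on the log2 scale that was not tested.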

How the results depend on the processing

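Of 1114 values of the members' ratios under alternatives, 1061 stayed on their side of the threshold (1016 with the same sign and 45, not called in either setting, with another sign), 42 lost a call and 11 gained one, and no called value changed sign. Most of the 74 ratios compared were not called to begin with and had no call to lose. The 42 lost calls all fall on the few ratios that were called, so the 1061 do not measure how well calls held. Probes called after 1 day of MgH2 (1846) were 66 by the methods' t-test, 714 without the filter on dim probes, 101 with only the arrays compared, 2966 with the replicate block, 3049 with slides as a random block and 411 to 769 with an array left out. After 3 days (4542) they were 34, 2430 and 292 under the first 3 of these and 2063 to 2949 with an array left out, and after 7 days (5747) 73 by the t-test, 2177 with only the arrays compared and 3085 to 4002 with an array left out. After 14 days (1815) they were 52 by the t-test, 502 with only the arrays compared, 2816 with the replicate block, 2818 with random slides and 448 to 573 with an array left out. For 3 against 1 day (4) they were 1 with median centering, 1 by the t-test, 0 without the filter, 18 with normexp and loess, 0 with only the arrays compared, 64 with the replicate block, 0 with slides as a fixed block and 0 to 8 with an array left out. For 7 against 1 day (1330) they were 0 by the t-test, 109 without the filter, 184 with only the arrays compared, 2571 with the replicate block, 2499 with random slides and 198 to 882 with an array left out. For 7 against 3 days limma called 0 probes throughout, 904 having an unadjusted p under 0.05.

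Member genes called after 3 days (3) were 0 by the t-test, 1 without the filter, 0 with only the arrays compared and 1 to 3 with an array left out. After 7 days (2) they were 0, 1 with only the arrays compared and 1 to 2 with an array left out, after 14 days (0) 1 with channel totals, 1 with normexp and loess and 1 with random slides, and for 7 against 1 day (0) 1, *Ghr*, with the mean over probes. The replicate block changed no other call of a member than *Igfals* and *Igfbp3*. The cause of these changes was not tested. Some of the alternatives also use fewer arrays or take in more probes. Scaling each channel to its total moved the share of called probes that were higher from 54.9% to 31.2% after 1 day, from 52.6% to 38.4% after 3 days, from 51.7% to 41.5% after 7 days and from 55.9% to 40.4% after 14 days. No slide holds arrays of both 1 and 7 days, so slides as a fixed block were run for the other contrasts of days alone. Precision is limited by 3 arrays a treatment, pooled RNA and the lack of a dye swap.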
